A study of Mus musculus with 14 samples.

Results

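The genes described here were measured in the striatum and the cerebellum of mice with a conditional knockout of Thap1. Thap1 RNA was lower in these mice than in wildtype mice but was still counted. The 44 genes encode lysosomal hydrolases, their cofactors and lysosomal membrane proteins, most of them known from lysosomal storage disorders. They are a named list built around Cln3 and Gusb, with members chosen by function and disease, and the question was whether loss of those 2 transcripts goes with a wider lysosomal change. All 44 were found by symbol among the 23337 symbols of the deposited counts.

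RNA sequencing was done on dissected brain tissue of Thap1 conditional knockout (cKO) mice and wildtype (WT) littermates, all on the C57Bl/6 background and 6 months old. Striatum was represented by 3 WT and 3 cKO libraries and cerebellum by 4 WT and 4 cKO libraries. Neither the labels nor the design text names the Cre driver, the cells in which it acts or the deleted part of Thap1, and neither states that each library came from a separate animal. The p-values therefore measure the spread between these libraries, which may be partly technical.

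Lysosomes are acidic organelles in which soluble hydrolases break down proteins, glycosaminoglycans, sphingolipids, glycogen and glycoproteins, while membrane proteins move the products out, and inherited loss of single members causes storage disorders that often damage the brain. Many lysosomal genes carry an E-box-type sequence, named CLEAR, that is bound by the transcription factor Tfeb and its relatives and can raise their transcription together. Thap1 encodes a DNA-binding zinc-finger protein, and variants of the human gene cause an inherited dystonia.

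Striatal libraries held 12595941 to 14258141 counts in total, cerebellar libraries held 19458954 to 28099205, and the lowest count of any of the 44 genes in any library was 40. Marker genes fixed for each region separated the tissues. The 6 striatal markers summed to 5313 to 5983 CPM (counts scaled per effective library size, the library total times its TMM factor) in WT striatum and to 145.0 to 187.3 CPM in WT cerebellum. Unless stated, CPM were scaled within each tissue, so levels of the tissues are not on the same scale. Thap1 itself was 14.3 ± 1.07 CPM in WT and 5.55 ± 1.96 CPM in cKO striatum (mean ± SD, n = 3 each; log2 fold change -1.36, edgeR adjusted p = 0.0562). In cerebellum it was 9.31 ± 1.245 CPM in WT and 7.36 ± 0.391 CPM in cKO (n = 4 each; log2 fold change -0.34, edgeR adjusted p = 0.0488). In striatum Thap1 passed with DESeq2 (adjusted p = 2.97e-05) and limma-voom (0.00362), in the joint model of all 14 libraries (0.00047), with no low-count filter (0.0172) and without WT replicate 1 (0.0248). In cerebellum it passed only without WT replicate 2 or 4 among the 8 fits with a library left out, and not with DESeq2 (0.0569), limma-voom (0.0625) or the joint model (0.353). The groups did not overlap in either tissue, and because the deleted part is not given these values are no measure of functional Thap1.

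Mature oligodendrocyte and myelin markers were lower in cKO in both tissues, with all 12 estimates below 0 in each. In striatum edgeR called 5 of 12 (41.7%, where 0.384% of all genes were called), DESeq2 11 and limma-voom 12, and the median log2 fold change was -0.833. In cerebellum edgeR called 8 of 12 (66.7%, where 7.59% of all genes were called), DESeq2 10 and limma-voom 9, with a median of -0.289. The 12 markers summed to 7526 to 9232 CPM in WT and 4782 to 5941 CPM in cKO striatum, and to 5246 to 5780 CPM in WT and 4576 to 5144 CPM in cKO cerebellum. Microglial markers, of which none was called in either tissue and none was at 0, summed to 600.0 to 797.2 CPM in WT and 702.6 to 737.5 CPM in cKO striatum, and to 222.4 to 244.4 and 236.8 to 255.5 CPM in cerebellum. Of 9 astrocyte markers edgeR called 0 in striatum, with 2 at an unadjusted p under 0.05, as were 7.24% of all genes. DESeq2 and limma-voom each called 2, Gfap and Aqp4, both higher. In cerebellum 5 of 9 were called, 3 higher and 2 lower. Gfap, an intermediate filament of astrocytes, had a log2 fold change of 1.58 in striatum (edgeR adjusted p = 0.0593) and 0.81 in cerebellum (1.6e-05). The summed level of the 9 ran from 4901 to 5905 CPM in WT and 5306 to 5639 CPM in cKO striatum, and from 4718 to 4982 and 4688 to 5195 CPM in cerebellum. Choroid plexus markers varied widely among cerebellar libraries, from 31.96 to 2207 CPM in WT and from 741.8 to 3622 CPM in cKO. In striatum they summed to 34.82 to 52.05 CPM in WT and to 47.73 to 189.0 CPM in cKO, with a cKO median of 175.9 CPM. The part of these cell types in the values below was not tested.

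Short promoter sequences are shown for a few members, because many members hold a regulatory motif that the choice of genes did not use. A match describes the letters of a window and is no measure of binding. RefSeq windows of the 250 bases before an annotated start (GRCm38.p6, the mm10 assembly) were found for 38 of the 44 genes and searched on both strands for the E-box CACGTG, and for the longer CLEAR palindrome, in which GT precedes and AC follows that E-box. The E-box was in 30.2% of the members' windows and in 6.02% of all 32851 windows. It was found for 13 members, Arsa, Cln3, Ctsa, Ctsd, Ctsf, Ctsl, Gaa, Gla, Glb1, Lamp1, Mcoln1, Naglu and Sgsh. The full palindrome was found for 1 member, Cln3, and in 0.24% of all windows. In the runs below, written 5′ to 3′ on the strand of the gene, capitals mark the E-box.
Cln3 (chr7:126583368-126583397, minus strand): gcaaccctcaagCACGTGatggaaggctca
Cln3 (chr7:126583340-126583369, minus strand): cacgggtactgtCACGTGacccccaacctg
Ctsd (chr7:142387908-142387937, minus strand): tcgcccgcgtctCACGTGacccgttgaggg
Lamp1 (chr8:13159088-13159117, plus strand): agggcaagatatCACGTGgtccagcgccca
Mcoln1 (chr8:3500462-3500491, plus strand): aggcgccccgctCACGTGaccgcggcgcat
Gaa (chr11:119267811-119267840, plus strand): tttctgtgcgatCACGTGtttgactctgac
Ctsf (chr19:4855074-4855103, plus strand): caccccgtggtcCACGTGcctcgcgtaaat
Sgsh (chr11:119355522-119355551, minus strand): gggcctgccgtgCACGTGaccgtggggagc

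Both Cln3 runs precede a start inside the Cln3 gene rather than its outermost start, and the second holds the palindrome. The core letters of the sequence recognised by the THAP1 zinc finger, TNNNGGCA, were in 37.2% of the members' windows and in 36.4% of all windows, so the members held them about as often as promoters in general. Cln3 had a match in its outermost window, on the strand opposite to the gene, with its first base 111 bases before the start. Gusb, the other member with a deep loss, had no match to any of these motifs in its 250 bases (chr5:130003050-130003299, minus strand), shown here for comparison in lower case throughout.
Gusb: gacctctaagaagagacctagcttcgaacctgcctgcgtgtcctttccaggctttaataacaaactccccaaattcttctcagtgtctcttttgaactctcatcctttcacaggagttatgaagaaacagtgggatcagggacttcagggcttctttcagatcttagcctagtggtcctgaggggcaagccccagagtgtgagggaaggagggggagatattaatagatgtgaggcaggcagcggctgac

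Cln3 and Gusb fell in both tissues, and no other member was called lower in either. A gene was called where its adjusted p in edgeR's quasi-likelihood test was under 0.05. In striatum these were the only 2 of the 44 members called, where 0.384% of the 14080 genes tested were called, 0.320% lower and 0.0639% higher. In cerebellum 5 of the 44 members were called, where 7.59% of the 14775 genes tested were, 4.96% lower and 2.63% higher. Those 5 were Cln3 and Gusb, which fell, and Galc, Ctsc and Tpp1, which rose.

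Cln3, on chromosome 7 (126571207-126585817, minus strand), encodes battenin, a lysosomal membrane protein whose loss in people causes the juvenile form of neuronal ceroid lipofuscinosis. In striatum Cln3 was at 11.57, 14.003 and 13.81 CPM in WT replicates 1 to 3 and at 3.54, 3.86 and 3.14 CPM in the cKO. Cerebellar Cln3 was at 15.1, 15.6, 14.9 and 15.1 CPM in WT replicates 1 to 4 and at 3.57, 3.63, 3.33 and 4.24 CPM in the cKO. Every WT library was well above every cKO library, and the cKO ranges of the tissues, each scaled within its tissue, overlapped. The cKO mean was 26.8% of the WT mean in striatum (log2 fold change -1.90, SE 0.166, edgeR adjusted p = 0.00391). It was 24.3% of the WT mean in cerebellum (log2 fold change -2.03, SE 0.0888, edgeR adjusted p = 5.96e-10). In bulk tissue, fewer cells of a type and less RNA per cell cannot be told apart. The cerebellar minus striatal log2 difference was -0.15 (95% confidence interval -0.50 to 0.20, edgeR adjusted p = 0.764).

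The striatal call on Cln3 was lost without cKO replicate 1 (adjusted p = 0.0737) or cKO replicate 3 (adjusted p = 0.0579), while its log2 fold change stayed between -1.99 and -1.82 over all alternatives run. Cln3 shares 442 bases of exon, 7.65% of its annotated exon length, with Apobr on the other strand, and the strand setting of the counting is not stated in those sources. Apobr was at 0.570 to 1.48 CPM in WT and 0.379 to 0.942 CPM in cKO striatum. In cerebellum Apobr was at 0.771 to 1.00 CPM in WT and 0.487 to 0.595 CPM in cKO. The part of this overlap in the Cln3 counts was not tested.

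Gusb, on chromosome 5 (129989011-130003049, minus strand), encodes β-glucuronidase, which removes glucuronic acid from glycosaminoglycan chains. In striatum Gusb was at 12.7, 10.8 and 15.01 CPM in WT replicates 1 to 3 and at 5.59, 5.23 and 5.49 CPM in the cKO. Cerebellar Gusb was at 13.4, 10.3, 12.9 and 10.9 CPM in WT replicates 1 to 4 and at 5.51, 4.42, 4.18 and 4.38 CPM in the cKO. The groups were apart in both tissues, with more spread among WT than among cKO libraries. The cKO mean was 42.3% of WT in striatum (log2 fold change -1.24, SE 0.166, edgeR adjusted p = 0.0251) and 38.9% of WT in cerebellum (log2 fold change -1.37, SE 0.113, edgeR adjusted p = 7.21e-07). The difference between the tissues was -0.15 (95% confidence interval -0.57 to 0.28, edgeR adjusted p = 0.809).

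In striatum the Gusb call did not hold without WT replicate 3 (adjusted p = 0.113) or without cKO replicate 1, 2 or 3 (adjusted p = 0.207, 0.128 and 0.206). All 8 cerebellar fits with a library left out kept it.

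**Figure D1:**
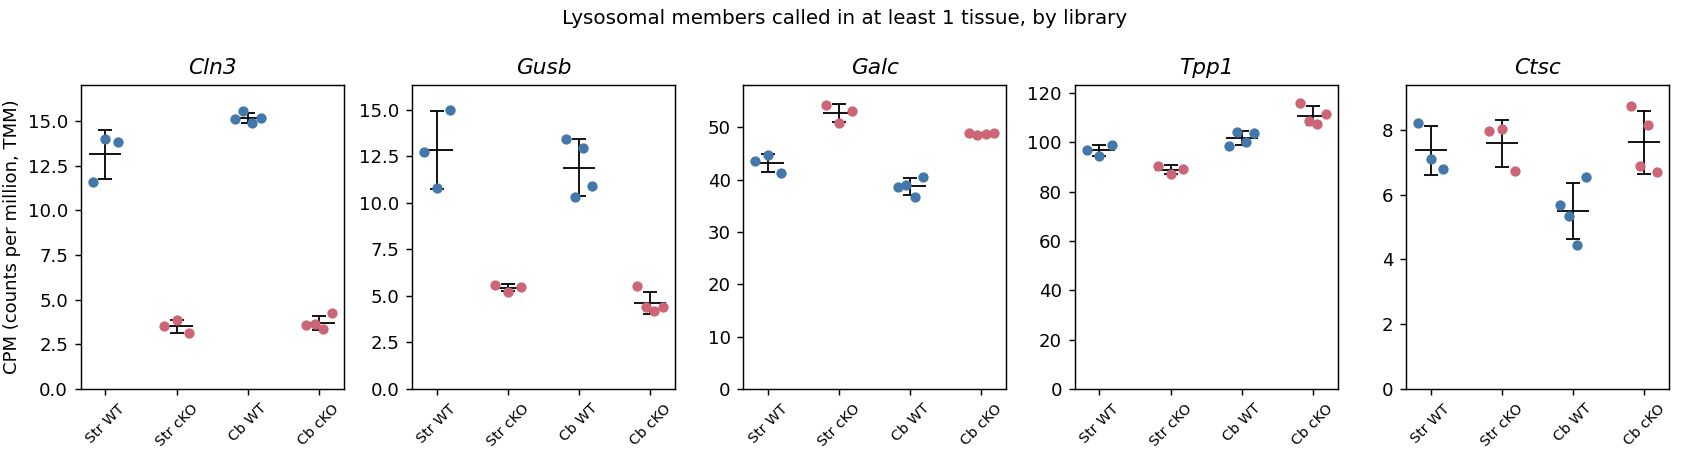
Level in CPM (vertical axes, from 0) of the 5 members called in at least 1 tissue, with 1 point per library and the group mean with its SD as bars. Str is striatum and Cb cerebellum, and CPM were scaled within each tissue. For Cln3 and Gusb all cKO points lie below all WT points in both tissues, for Galc they lie above in both, and for Tpp1 and Ctsc they lie above in cerebellum only.

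The 42 members beside Cln3 and Gusb lay on both sides of 0 in both tissues. In striatum 0 of 42 were called by edgeR, DESeq2 or limma-voom, and 3 had an unadjusted p under 0.05 in edgeR, as did 7.24% of all genes tested. Their log2 fold changes ran from -0.42 for Npc1 to 0.32 for Cln6, with 18 below and 24 above 0 and a median of 0.0386, beside a median of 0.00236 over all genes tested. In cerebellum the 42 ran from -0.20 for Tfeb to 0.46 for Ctsc, with 19 below and 23 above 0. Their median there was 0.0141, beside 0.00437 over all genes tested, and 3 of the 42 (7.14%) were called, all higher, a share near the 7.59% of all genes. In edgeR, 9 of the 42 had an unadjusted p under 0.05 in cerebellum, as did 22.5% of all genes tested.

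Summed over the 42 genes, the level was 5471, 5525 and 5654 CPM in the WT and 5475, 5631 and 5756 CPM in the cKO striatal libraries, listed from lowest to highest. In cerebellum the sum was 5559 ± 101 CPM in WT and 5618 ± 124 CPM in cKO (n = 4 each). The sums overlapped between genotypes in both tissues.

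The intervals set how large a change these libraries leave possible. In cerebellum the 95% confidence interval of the log2 fold change lay within ±0.25 for 32 of the 42 genes and within ±0.5 for 41, all but Ctsc. Striatal libraries were fewer and shallower and varied more (edgeR common coefficient of variation 0.135, beside 0.0722 in cerebellum). There the interval lay within ±0.5 for 31 of the 42. The lowest bound among the 42 was -0.78 in striatum, for Galns, and -0.36 in cerebellum, for Tfeb, both short of the estimates for Cln3 and Gusb.

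**Figure D2:**
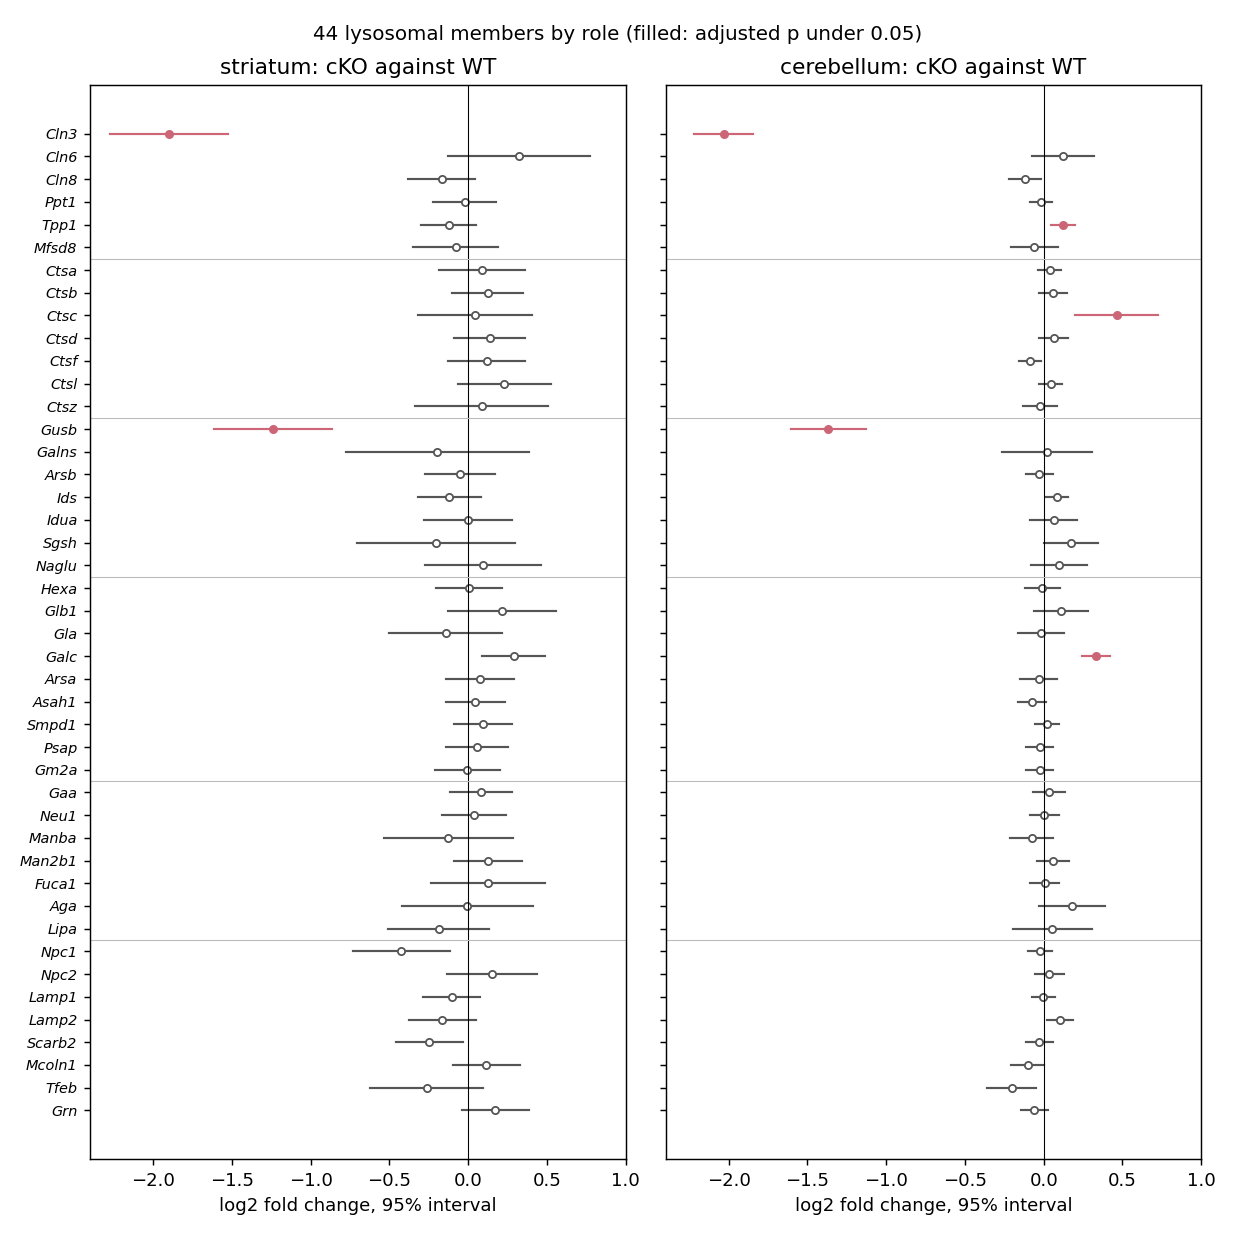
Log2 fold change of cKO against WT (horizontal axis) with its 95% confidence interval for each of the 44 members, grouped by role, in striatum and cerebellum. Filled red points passed an adjusted p under 0.05; all except Cln3, Gusb and, in cerebellum, Galc, Ctsc and Tpp1 are open, and the striatal intervals are the wider ones.

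Among the other neuronal ceroid lipofuscinosis genes, Tpp1, a serine protease that removes tripeptides from protein ends, rose slightly in cerebellum. It was at 98.4, 104.2, 99.9 and 103.8 CPM in WT replicates 1 to 4 and at 115.9, 108.5, 107.3 and 111.4 CPM in the cKO. The cKO mean was 109.1% of WT (log2 fold change 0.12, SE 0.0358, edgeR adjusted p = 0.0435). In striatum its levels were 96.9, 94.5 and 98.9 CPM in WT and 90.5, 86.9 and 89.1 CPM in the cKO, without overlap but with the cKO lower (log2 fold change -0.12, adjusted p = 0.773).

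The Tpp1 difference between the tissues was 0.23 (SE 0.0676), with an edgeR adjusted p of 0.178 and a DESeq2 adjusted p of 0.0274. The cerebellar call passed in 2 of 8 fits with a library left out, those without WT replicate 2 or cKO replicate 3, and not in the other 6. It did not pass with limma-voom (adjusted p = 0.057) or with all 14 libraries in 1 model (adjusted p = 0.296).

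The remaining 4 genes of that family were not called in either tissue. Cln6 and Cln8, which act in the endoplasmic reticulum to send hydrolases towards the lysosome, had log2 fold changes of 0.32 and -0.17 in striatum and of 0.13 and -0.12 in cerebellum. Ppt1, which removes fatty acids from proteins, was at 108.7 and 107.0 CPM in WT and cKO striatum and at 152.6 and 151.0 CPM in cerebellum. Mfsd8, a lysosomal membrane protein, was at 34.2 and 32.4 CPM in striatum and at 18.2 and 17.4 CPM in cerebellum.

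Of the 7 proteases, Ctsc was the only one called. Ctsc, cathepsin C, activates serine proteases of immune cells. In cerebellum it was at 5.70, 5.33, 4.44 and 6.54 CPM in WT replicates 1 to 4 and at 8.73, 6.90, 8.15 and 6.70 CPM in the cKO. The lowest cKO library was just above the highest WT library. The cKO mean was 138.5% of WT (log2 fold change 0.46, SE 0.124, edgeR adjusted p = 0.0317). Striatal levels of Ctsc overlapped, at 8.23, 7.11 and 6.79 CPM in WT and 7.97, 8.03 and 6.75 CPM in the cKO (log2 fold change 0.04, adjusted p = 0.95), and the difference between the tissues was not called (0.41, adjusted p = 0.455).

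The Ctsc call passed in 3 of 8 fits with a cerebellar library left out, those without WT replicate 4, cKO replicate 2 or cKO replicate 4, and not in the other 5. It did not pass with limma-voom (adjusted p = 0.055) or with all 14 libraries in 1 model (adjusted p = 0.112). The other 6 proteases were the cysteine cathepsins Ctsb, Ctsf, Ctsl and Ctsz, the aspartyl protease Ctsd and the carboxypeptidase Ctsa, which also protects Glb1 and Neu1 from degradation. All 7 striatal estimates were above 0, at 0.04 to 0.23, with the lowest adjusted p at 0.76. Over the alternatives run, those of Ctsz, Ctsa and Ctsc reached -0.125, -0.0345 and -0.0154, while those of Ctsb, Ctsd, Ctsf and Ctsl stayed above 0. In cerebellum the other 6 ran from -0.08 for Ctsf to 0.06. Ctsf was at 92.0 to 97.0 CPM in WT and 87.4 to 89.7 CPM in cKO cerebellum, a separation that did not pass the test (adjusted p = 0.133).

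Beside Gusb, the hydrolases of glycosaminoglycans and their sulfate groups held no call. The sulfatases Ids, Arsb, Galns and Sgsh, the iduronidase Idua and the glucosaminidase Naglu had striatal log2 fold changes from -0.20 for Sgsh to 0.10 for Naglu. In cerebellum they ran from -0.03 for Arsb to 0.17 for Sgsh. Ids, which removes sulfate from iduronic acid, was at 768.2 to 811.7 CPM in WT and 675.2 to 746.8 CPM in cKO striatum. In cerebellum Ids was at 330.5 to 349.1 CPM in WT and 353.1 to 363.7 CPM in cKO. The genotypes of Ids were apart in opposite directions, lower in cKO striatum (adjusted p = 0.78) and higher in cKO cerebellum (adjusted p = 0.135), and neither passed.

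Among the sphingolipid hydrolases and activators, Galc rose in cerebellum. Galc, on chromosome 12 (98202294-98259459, minus strand), encodes galactosylceramidase, which breaks down a main lipid of myelin. In cerebellum it was at 38.6, 38.9, 36.8 and 40.6 CPM in WT replicates 1 to 4 and between 48.6 and 48.9 CPM in all 4 cKO libraries. The cKO mean was 126% of WT (log2 fold change 0.33, SE 0.0427, edgeR adjusted p = 0.000111), and the call held without each library in turn. In striatum it was at 43.5, 44.7 and 41.4 CPM in WT and at 54.3, 50.9 and 53.0 CPM in the cKO, again without overlap.

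The striatal estimate for Galc was close to the cerebellar one (log2 fold change 0.29, SE 0.0889) but had an edgeR adjusted p of 0.433 (unadjusted p = 0.00997). With all 14 libraries in 1 model it passed (adjusted p = 0.0134). The difference between the tissues was 0.03 (95% confidence interval -0.14 to 0.19). Galc thus stood higher in cKO in both tissues, while the sum of the myelin markers stood lower.

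The other 8 genes of this group were not called in either tissue. They were the ganglioside hydrolases Hexa and Glb1, the activators Psap and Gm2a, and Gla, Arsa, Asah1 and Smpd1, which act on globosides, sulfatide, ceramide and sphingomyelin. Their log2 fold changes ran from -0.14 for Gla to 0.22 for Glb1 in striatum and from -0.07 for Asah1 to 0.11 for Glb1 in cerebellum. Psap, the saposin precursor, had the highest level of the 44 genes, at 1397 and 1453 CPM in WT and cKO striatum and at 1573 and 1545 CPM in cerebellum.

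No hydrolase of glycogen, glycoproteins or neutral lipids was called. Gaa, which digests glycogen, was at 454.9 and 481.8 CPM in WT and cKO striatum and at 201.0 and 205.4 CPM in cerebellum. The sialidase Neu1, the mannosidases Manba and Man2b1, the fucosidase Fuca1, the glycosylasparaginase Aga and the lipase Lipa had log2 fold changes from -0.19 for Lipa to 0.13 for Man2b1 in striatum. In cerebellum these 6 ran from -0.08 for Manba to 0.18 for Aga.

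The cholesterol export, membrane and regulatory genes also held no call. Npc1, which passes cholesterol out of the lysosome, had the lowest striatal estimate of the 42. It was at 157.7, 107.2 and 123.0 CPM in WT replicates 1 to 3 and at 95.5, 101.5 and 92.2 CPM in the cKO. The groups did not overlap, but the WT libraries were spread widely (log2 fold change -0.42, 95% confidence interval -0.73 to -0.12, edgeR adjusted p = 0.469). With all 14 libraries in 1 model Npc1 passed (adjusted p = 0.033). Cerebellar means of Npc1 were 85.5 CPM for WT and 84.1 CPM for cKO.

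Scarb2, a lysosomal membrane protein, was at 90.8, 75.6 and 83.6 CPM in WT and 71.7, 70.8 and 68.0 CPM in cKO striatum (log2 fold change -0.25, adjusted p = 0.615). The lysosomal membrane glycoproteins were likewise lower in each cKO striatal library than in any WT one, Lamp1 at 324.2 to 328.7 and 290.4 to 320.0 CPM and Lamp2 at 84.2 to 102.4 and 81.3 to 82.9 CPM, with adjusted p of 0.782 and 0.762. In cerebellum Lamp2 had means of 136.9 CPM for WT and 147.3 CPM for cKO (adjusted p = 0.116) and Lamp1 at 422.4 and 421.7 CPM. Grn, the progranulin precursor, was at 48.1 to 53.9 CPM in WT and 55.2 to 60.3 CPM in cKO striatum (log2 fold change 0.17, adjusted p = 0.749). Npc2 and the cation channel Mcoln1 had log2 fold changes between -0.10 and 0.15 over both tissues.

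Tfeb, the transcription factor of the CLEAR network, was at 9.45, 7.56 and 9.26 CPM in WT and 6.68, 7.43 and 7.77 CPM in cKO striatum (log2 fold change -0.26, adjusted p = 0.767). Cerebellar Tfeb was at 18.3, 15.9, 17.6 and 15.02 CPM in WT and 15.1, 13.8, 14.3 and 14.9 CPM in the cKO. The cerebellar ranges overlapped slightly, and the difference did not pass the test (log2 fold change -0.20, SE 0.0734, adjusted p = 0.111).

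Groups without overlap were found for 9 of the 42 members in striatum (21.4%), where 15.1% of all genes tested had none (8.20% lower and 6.85% higher in cKO). They were Galc and Grn, higher in cKO, and Cln8, Tpp1, Ids, Npc1, Lamp1, Lamp2 and Scarb2, lower. In cerebellum they were found for 5 of 42 (11.9%), where 14.3% of all genes had none (7.96% lower and 6.38% higher), and these were Tpp1, Ctsc, Ids and Galc, higher, and Ctsf, lower. Striatal WT replicate 1 was the lowest of the 6 striatal libraries for 16 of the 42 genes and the highest for 15.

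The 12 members with an E-box other than Cln3 held 0 edgeR calls in both tissues, where 0.384% of all genes were called in striatum and 7.59% in cerebellum. Their log2 fold changes ran from -0.20 to 0.23 in striatum, with a median of 0.092, and from -0.10 to 0.17 in cerebellum, with a median of 0.0354. The 24 members with a window and no E-box, Gusb left out, had medians of 0.0033 and 0.0051 and included Galc, Ctsc and Tpp1. At the shares above, groups of 12 and 24 genes are too small to compare by number of calls.

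The genotype effect on the members was compared between the tissues in 1 model. Whether both tissues came from the same mice is not stated, and the model treated all libraries as independent. By edgeR 0 of 44 members had a called difference, where 0.390% of the 15401 genes tested had one, and 8 had an unadjusted p under 0.05, as did 11.6% of all genes tested. Those 8 were Tpp1, Ctsf, Ids, Npc1, Lamp2, Scarb2, Mcoln1 and Grn. DESeq2 called 1 member, Tpp1, limma-voom called none, and the edgeR fit without striatal WT replicate 2 called 1, Npc1.

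Levels of the members were also compared between the regions in WT mice. For this and for the levels per kilobase below, CPM were scaled over the WT libraries of both tissues. They therefore differ from the CPM above, which were scaled within each tissue. Of the 44 members, 30 were called between WT striatum and WT cerebellum (68.2%), where 64.2% of the 15031 genes tested were, a share near that of the members. Higher in striatum were 11 members, where 31.5% of all genes were. Ids was at 827.2 CPM in striatum and 320.0 CPM in cerebellum (log2 difference 1.37, striatum minus cerebellum), and Gaa at 480.1 and 190.3 CPM (log2 difference 1.33). Mfsd8, at 36.1 and 17.2 CPM, and Man2b1, at 60.8 and 34.0 CPM, followed. Higher in cerebellum were 19 members, where 32.7% of all genes were, led by Manba at 8.74 and 23.2 CPM (log2 difference -1.41), Cln6 at 6.30 and 12.7 CPM (log2 difference -1.01) and Ctsf at 49.1 and 89.0 CPM (log2 difference -0.86). Cln3 (log2 difference -0.05, adjusted p = 0.665) and Gusb (0.27, adjusted p = 0.137) were not called between the regions.

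In the same WT libraries all 12 microglial markers were higher in striatum, with a median log2 difference of 1.71, and their part in the members' differences was not tested. Region and any order of processing cannot be told apart, and the libraries of the regions were again treated as independent.

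Per kilobase of annotated exon, Psap had the highest level in both tissues, at 537.0 ± 17.7 CPM per kb in WT striatum (n = 3) and 542.7 ± 13.5 CPM per kb in WT cerebellum (n = 4). Ids, Ctsd and Lamp1 followed in striatum and Lamp1, Ctsd and Ctsb in cerebellum. In striatum Ids, at 157.9 to 169.7 CPM per kb, was above Ctsd, at 130.2 to 152.2, while Ctsd and Lamp1, at 127.4 to 131.0, overlapped. The lowest were Manba in striatum, at 1.254 CPM per kb, and Ctsc in cerebellum, at 0.897 CPM per kb. Cln3 ranked 38 of 44 in striatum and 39 in cerebellum, and Gusb ranked 35 and 40, so both genes that fell were among the lower-level members already in WT.

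**Figure D3:**
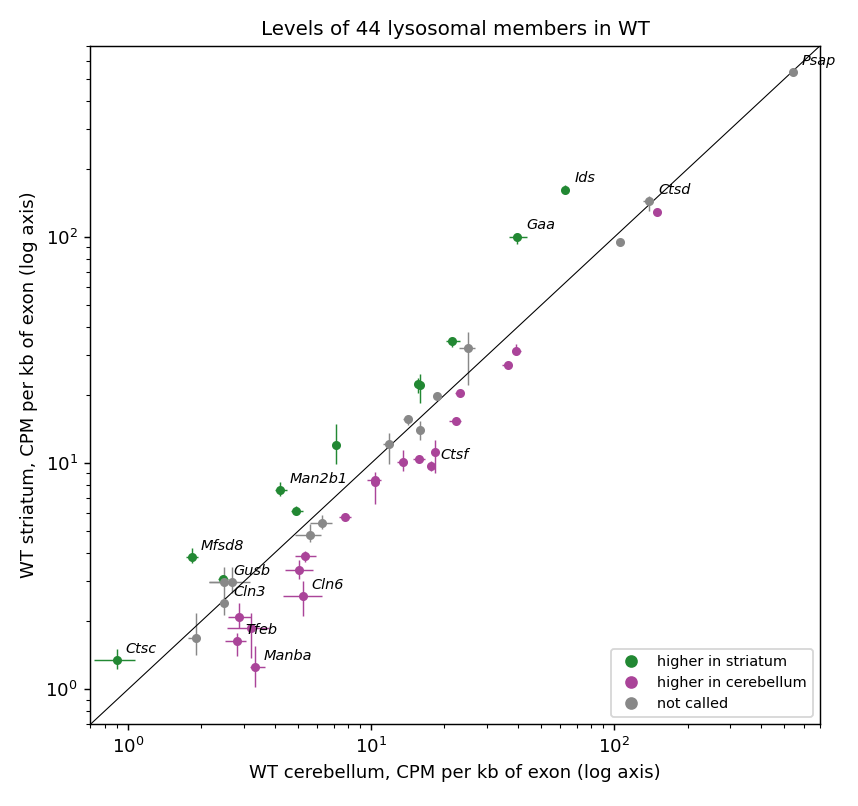
Level of each member in WT striatum (vertical axis) against WT cerebellum (horizontal axis) in CPM per kb of exon, both on log axes, with bars from the lowest to the highest library and the line of equal levels. Green points were called higher in striatum (11), purple points higher in cerebellum (19) and grey points were not called (14); Ids, Gaa and Mfsd8 lie above the line and Manba and Cln6 below it.

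Around the 44 members, 153 further genes in 6 lists were examined, covering other lysosomal proteins, the proton pump, sorting, Tfeb-family and mTORC1 control, autophagy and vesicle tethering. In striatum edgeR called 0 of the 148 tested and DESeq2 0 of 152. By edgeR 6 had an unadjusted p under 0.05, where 7.24% of all genes did. Limma-voom called 2, Pik3c3 and Uvrag, both higher, where it called 178 of 14080 genes. In cerebellum 10 of 149 were called (6.71%, beside 7.59% of all genes), 4 higher and 6 lower, and the median of the 149 was 0.00674.

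Among other lysosomal hydrolases and membrane proteins 1 of 44 tested rose and 3 fell in cerebellum. The called share was 9.09%, beside 7.59% of all genes (2.63% higher and 4.96% lower). The sialic acid exporter Slc17a5 fell from 20.2 ± 0.894 to 16.4 ± 0.711 CPM (log2 fold change -0.29, adjusted p = 0.00726). The acid phosphatase Acp2 rose from 87.8 ± 2.49 to 99.6 ± 2.35 CPM (log2 fold change 0.18, adjusted p = 0.00355).

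Of 18 subunits of the V-ATPase, the proton pump that acidifies lysosomes, the membrane subunit Atp6v0a1 rose in cerebellum from 469.3 ± 13.5 to 565.0 ± 7.58 CPM (log2 fold change 0.27, adjusted p = 0.000284). The membrane subunit Atp6v0b fell from 167.2 ± 3.08 to 152.9 ± 4.55 CPM (log2 fold change -0.13, adjusted p = 0.0166). The called share of the 18 in cerebellum was 11.1%, beside 7.59% of all genes. The median over the 18 was 0.0569 in cerebellum and 0.113 in striatum, with 14 and 15 estimates above 0. In edgeR, 7 of the 18 had an unadjusted p under 0.05 in cerebellum, where 22.5% of all genes did, and 0 in striatum, where 7.24% did.

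Of 20 genes of mannose 6-phosphate tagging and lysosomal sorting none was called by edgeR, DESeq2 or limma-voom in either tissue. By edgeR 3 had an unadjusted p under 0.05 in cerebellum, where 22.5% of all genes did, and 0 in striatum, where 7.24% did. Of 21 genes of Tfeb-family and mTORC1 control, the GTPase Rragd fell in cerebellum (log2 fold change -0.14, adjusted p = 0.0332). Of 26 autophagy genes Uvrag (0.22, adjusted p = 0.0122) and Pik3c3 (0.14, adjusted p = 0.0476), members of a lipid kinase complex, rose there. Of 20 tethering genes Plekhm1, an adaptor for fusion with lysosomes, fell (-0.19, adjusted p = 0.0291). The called share was 4.76% for mTORC1 control, 7.69% for autophagy and 5.0% for tethering, beside 7.59% of all genes.

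These last calls were close to the threshold in cerebellum. Atp6v0b lost its call without WT replicate 3 or 4 or cKO replicate 3 or 4, and Rragd lost its call without WT replicate 3 or 4 or cKO replicate 1 or 2. Plekhm1 passed only without WT replicate 2 or cKO replicate 3, and Pik3c3 only without WT replicate 1, among the fits that left out 1 library. Atp6v0a1, Acp2, Slc17a5 and Uvrag passed in all 8 of those fits. None of these 8 genes passed in cerebellum with all 14 libraries in 1 model. The adjusted p there was 0.0691 for Atp6v0a1, 0.149 for Acp2, 0.0548 for Slc17a5, 0.115 for Uvrag and 0.238 to 0.615 for the others. In striatum edgeR called none of the 8. Slc17a5 (log2 fold change -0.49), Acp2 (0.27), Pik3c3 (0.33) and Uvrag (0.36) had the cerebellar direction there, without overlap between genotypes. Of all 148 genes of the further lists tested in striatum, 19 (12.8%) had no overlap, beside 15.1% of all genes. Acp2 and Slc17a5 passed in striatum under 1, and Pik3c3 and Uvrag under 2, of the 8 alternatives that left no library out. Atp6v0a1, Atp6v0b, Plekhm1 and Rragd overlapped between genotypes in striatum.

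**Figure D4:**
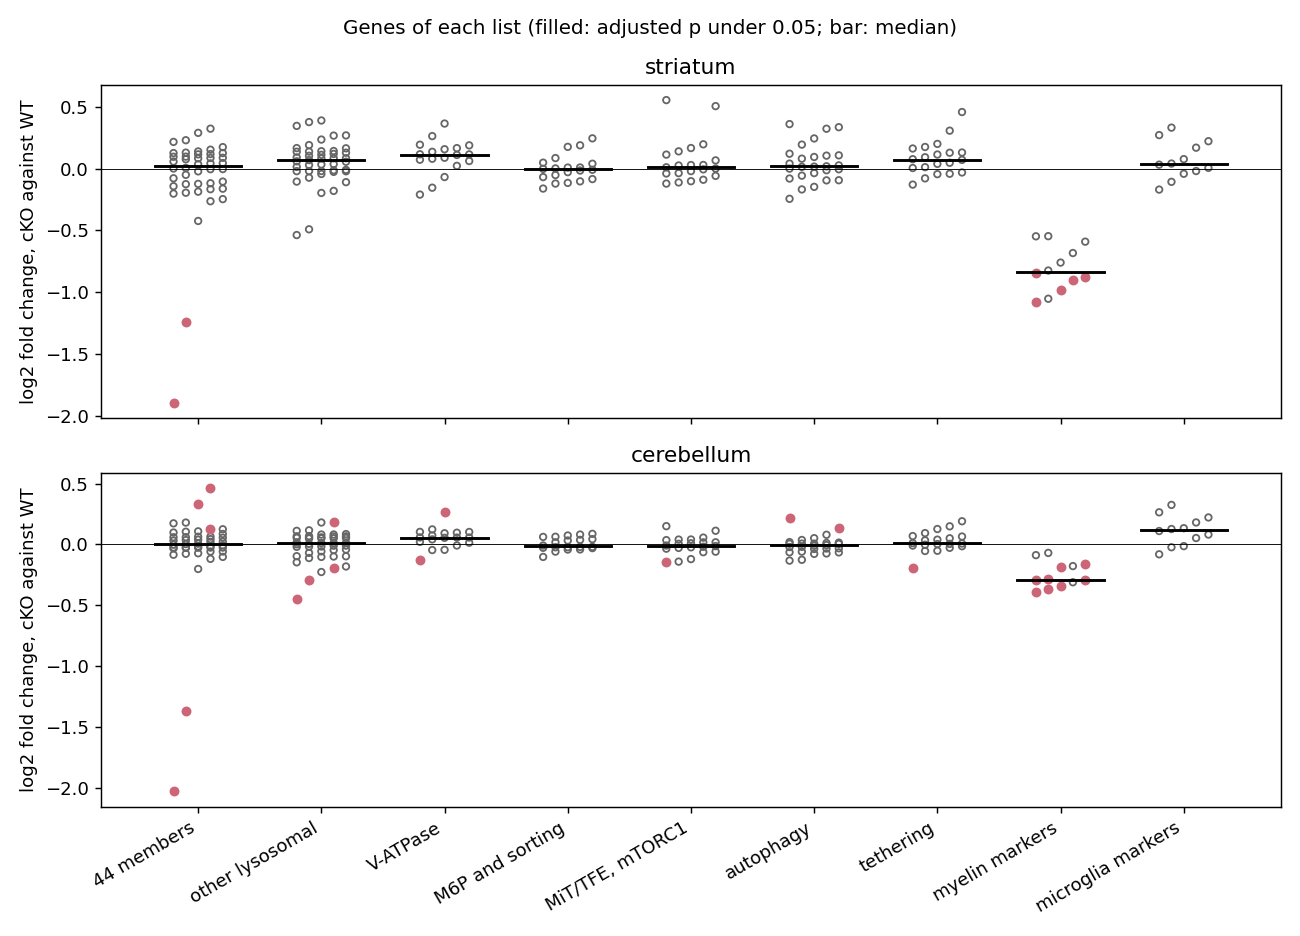
Log2 fold change of cKO against WT (vertical axis) for each gene of the 44 members, the 6 further lists and the myelin and microglial markers, in striatum and cerebellum, with black bars at list medians. Filled red points passed an adjusted p under 0.05. The lysosomal lists have medians from -0.0146 to 0.113, the highest for the V-ATPase in striatum. The myelin markers have medians of -0.833 in striatum and -0.289 in cerebellum.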

How the data were processed

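For each library the authors deposited raw counts for 23337 gene symbols. The submitters' processing notes name HTSeq 0.6.1p1, STAR, DESeq2 and cutadapt 1.13 and the build mm10, without order or strand setting, so genes whose exons overlap (12 members, 11 of them only with a gene on the other strand) have uncertain counts.

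Groups came from the labels. Counts were filtered with filterByExpr (minimum count 10, minimum total 15) and normalised with TMM, an order settled after both orders had been seen. Both steps were done apart for each comparison, so the CPM of a library differ between comparisons. Genotypes were compared within each tissue by robust quasi-likelihood tests in edgeR 4.0.16 (R 4.3.3), and tissues by the interaction over all 14 libraries. P-values were adjusted by Benjamini-Hochberg over all genes tested and called under 0.05. A log2 fold change above 0 means a higher level in cKO. Its SE was taken as the estimate over the root of F. Errors on CPM are SD. The code was tested on simulated counts.

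The members and lists were chosen with earlier results of these data known. All members, Thap1, and up to 3 called genes per further list and tissue, those with the smallest p, were eligible to be named; 1 further gene is not reported here. Genes had 5 older symbols, matched through RefSeq. Alternatives were DESeq2 1.42.0, limma-voom (limma 3.58.1), other scalings and filters, a replicate block, 1 joint model and leaving out each library. Exon lengths and coordinates came from GENCODE on mm10. Intervals cover the spread between libraries only.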

Additional observations from a re-analysis of the deposited data

Results flagged for a closer look

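Acp2 in WT cerebellum had 1 library apart from the rest, replicate 3 at 84.1 CPM, with the other 3 at 88.9 to 89.1 CPM. Among the 106 groups of 4 cerebellar libraries examined this was the only one. Chance flags about 1 in 20 such groups, so this flag is not more than chance gives.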

How the results depend on the processing

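The number of members called in striatum, 2, became 4 with all libraries in 1 model and 1 with the replicate block, and was 0 to 2 when 1 library was left out. For all genes in striatum, 54 calls became 151 with DESeq2, 178 with limma-voom, 376 with all libraries in 1 model, 15 with the replicate block and 3 to 122 when 1 library was left out. In cerebellum the 5 called members became 3 with limma-voom, 3 with all libraries in 1 model and 3 to 4 when 1 library was left out, and the 1121 called genes became 251 in 1 model and 739 to 1165 with 1 library left out. The interaction gave 0 called members, 1 with DESeq2 and 0 to 1 with 1 library left out. The 30 members called between WT tissues ranged from 28 to 37. The cause of these shifts was not tested. Whether replicate numbers pair the samples is not given by the labels and stayed unresolved. Correlations of same-numbered deviations were low but positive, 0.0574 to 0.133 in striatum and 0.0557 to 0.339 in cerebellum. The own number was the best match in 3 of 3 and 1 of 4. With the replicate block the striatal Gusb call had an adjusted p of 0.0884 and the cerebellar Tpp1 call 0.0603, and cerebellum had 4 called members and 1246 called genes. Of the 2709 fits of single genes under alternatives, no called value changed sign. Scaling before filtering, an alternative added after seeing the data, left the same 5 members called. With 3 libraries a group, the striatal interval reached beyond 0.5 on the log2 scale for 11 of the 42 members other than Cln3 and Gusb.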
